A study of Mus musculus with 15 samples.

Results

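Expression of 38 genes of B cell identity and B cell receptor (BCR) signaling was examined in tumors of 15 mice, 1 RNA-seq library per mouse. The genes were given by name, by a rule that sets no threshold on measured values: 12 transcription factors, 15 surface proteins and 11 signaling proteins. All 38 were listed among the 23329 genes counted in every library, and all 38 were among the 14880 genes that had over 1 CPM (reads of a gene relative to the reads of its library, as CPM, scaled between libraries by the TMM method) in at least 3 tumors. Lymphomas came from cervical lymph nodes of EμMyc mice (C57BL/6, 4 tumors, onset at 13 to 19 weeks) and of EμMyc/Casp2-/- mice (3 tumors, onset at 8 to 12 weeks), in which an immunoglobulin heavy chain enhancer drives Myc in B cells. Neuroblastomas were thoracic paraspinal masses of Th-MYCN mice on a mixed Sv129 and C57BL6 background (4 tumors, onset at 10 to 21 weeks) and of Th-MYCN/Casp2-/- mice (4 tumors, onset at 15 to 24 weeks). In these mice MYCN is under the promoter of tyrosine hydroxylase, which is active in sympathetic neuroblasts, and masses with little or no vascularization had been selected. Each mouse thus carried a MYC family transgene, and the Casp2-/- groups lacked functional Caspase-2 in every cell of the animal. Tumor type was confounded with transgene, strain and site, and in the lymphomas onset age did not overlap between genotypes, so that these cannot be told apart. Single tumors carry the names of the submitters' labels, such as EuMycC2ko215.

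B cells are made by a small set of transcription factors that act in sequence. Tcf3 and Ebf1 open the program in progenitors, and Pax5 commits cells to the lineage. The Ikaros factors Ikzf1 and Ikzf3, with Spib, Irf8 and the octamer pair Pou2f2 and Pou2af1, also take part, at early or later stages. The BCR is an antibody on the cell surface that signals through its partners Cd79a and Cd79b. On contact with antigen the Src family kinases Lyn and Blk phosphorylate these partners, the kinase Syk binds them, and the adaptor Blnk gathers Btk and Plcg2 to release calcium. Cd22 and Cd72 damp the signal. Several of these genes are not confined to B cells. From general knowledge, 14 of the 38 were taken as mostly of the B lineage among blood cells. Ebf1, which neurons and stromal cells also use, and Ikzf3, a factor of lymphocytes, were placed among these 14. A further 19 were taken as shared with myeloid or T cells, and 5 (Tcf3, Foxo1, Bcl11a, Cd24a and Swap70) as broadly expressed, in neural cells among others.

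Promoter sequence was at hand for 28 of the 38 genes (RefSeq, GRCm38.p6, from 250 bases before to 50 after the annotated start). These 4 promoters are shown because Cd79a had the smallest FDR of the 38 genes between the tumor types, Blnk was the only one with an octamer, and Bank1 and Btk lay near opposite ends of the range of variation among the lymphomas. The sequences run 5′ to 3′ on the strand of the gene, and capitals mark matches on either strand to CAGGTG (the E-box bound by Tcf3), ATTTGCAT (the octamer bound by Pou2f2 with Pou2af1), CCCNNGGG (the core bound by Ebf1) or GAGGAA (the core bound by PU.1 and Spib).
Cd79a, chr7:24897247-24897546, plus strand: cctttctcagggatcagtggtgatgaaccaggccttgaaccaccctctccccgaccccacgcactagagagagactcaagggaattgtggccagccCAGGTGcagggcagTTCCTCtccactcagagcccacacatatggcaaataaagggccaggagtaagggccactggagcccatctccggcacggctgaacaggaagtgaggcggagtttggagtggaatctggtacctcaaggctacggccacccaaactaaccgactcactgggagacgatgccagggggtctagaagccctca
Blnk, chr19:40994172-40994471, minus strand: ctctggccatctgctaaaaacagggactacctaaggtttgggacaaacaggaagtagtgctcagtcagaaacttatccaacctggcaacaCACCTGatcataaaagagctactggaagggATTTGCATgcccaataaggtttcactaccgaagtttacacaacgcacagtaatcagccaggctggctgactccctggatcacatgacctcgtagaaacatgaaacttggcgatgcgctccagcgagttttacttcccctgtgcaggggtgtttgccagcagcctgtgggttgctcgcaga
Bank1, chr3:136326017-136326316, minus strand: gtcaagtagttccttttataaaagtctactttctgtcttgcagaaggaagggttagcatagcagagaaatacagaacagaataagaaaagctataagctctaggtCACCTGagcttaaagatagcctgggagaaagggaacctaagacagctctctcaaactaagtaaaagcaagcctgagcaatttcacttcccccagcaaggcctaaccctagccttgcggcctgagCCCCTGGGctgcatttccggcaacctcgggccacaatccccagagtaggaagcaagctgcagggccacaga
Btk, chrX:134583091-134583390, minus strand: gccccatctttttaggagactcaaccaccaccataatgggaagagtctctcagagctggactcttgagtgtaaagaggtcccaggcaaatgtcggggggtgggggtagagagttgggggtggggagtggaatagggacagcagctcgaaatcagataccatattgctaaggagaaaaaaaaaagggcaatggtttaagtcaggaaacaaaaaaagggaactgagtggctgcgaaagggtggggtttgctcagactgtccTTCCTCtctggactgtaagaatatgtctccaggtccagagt
The E-box stood in promoters of 12 of the 28 genes (42.9%), against 22.6% of 27025 genes with a promoter. The PU.1 and Spib core stood in 13 (46.4%, all genes 31.2%), the Ebf1 core in 7 (25%, all genes 15.4%) and the octamer in 1 (3.57%, all genes 1.97%). The capitals of the Cd79a promoter begin 154 and 140 bases before the start (E-box, then the PU.1 and Spib core), those of Blnk 160 and 130 bases before it (E-box, then octamer) and those of Bank1 145 and 21 bases before it (E-box, then Ebf1 core). In the Btk promoter the only match, to the PU.1 and Spib core, begins 9 bases after the start. These are matches of letters in a window of 300 bases and were not tested as binding sites.

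The libraries held 4940464 to 17638029 reads on genes, so that 3 reads, the fewest taken as detected, stood for 0.170 to 0.607 CPM (counting error only). The least deep library, EuMycC2ko215, had 11.2% of its reads unmapped, against 2.26 to 3.89% in the others. As a check of the genotypes, Casp2 was at 125, 139, 167 and 203 CPM in the EμMyc tumors and at 51.9, 58.0 and 76.1 CPM in the EμMyc/Casp2-/- tumors, and the ranges did not overlap (log2 fold change -1.35, SE 0.27, likelihood ratio test of edgeR, FDR 4e-04, quasi-likelihood FDR 0.0536). In the neuroblastomas the ranges of 76.0 to 125 CPM for Th-MYCN tumors and 39.6 to 80.2 CPM for Th-MYCN/Casp2-/- tumors overlapped (-0.79, SE 0.25, FDR 0.101). These reads stem from the whole gene and check a reduction of the transcript, not loss of the protein.

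The labels of the tumors were checked against marker genes, summed over each list in CPM. The 11 neuroblast markers, Th and Dbh among them, summed to 7.98 to 25.8 CPM in lymphomas and to 2911 to 5693 CPM in neuroblastomas. The 7 mature B cell markers that passed the filter, Cd74 among them, summed to 366 to 3176 CPM in lymphomas and to 18.1 to 102 CPM in neuroblastomas. Most of these sums came from Cd74, H2-Aa and H2-Ab1, genes of MHC class II presentation. They were at 157 to 1962, 69.5 to 445 and 93.8 to 459 CPM in EμMyc tumors. Markers of other blood cells were present as well. The sum of 14 T cell markers was 118 to 167 CPM in EμMyc tumors and 290 and 245 CPM in EuMycC2ko239 and EuMycC2ko245, but 2209 CPM in EuMycC2ko215, where Cd8a reached 362 CPM. In the neuroblastomas it was 36.7 to 51.9 CPM, and Cd3d and Cd3g were at 0 in several of them. The myeloid markers summed to 712 to 1797 CPM in EμMyc, 489 to 1927 in EμMyc/Casp2-/-, 742 to 1096 in Th-MYCN and 450 to 979 in Th-MYCN/Casp2-/- tumors. Results for the 19 shared genes therefore stand beside signal of myeloid cells in both tumor types, whose part in them was not tested. In such bulk samples fewer B cells and less RNA per B cell cannot be told apart.

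**Figure D1:**
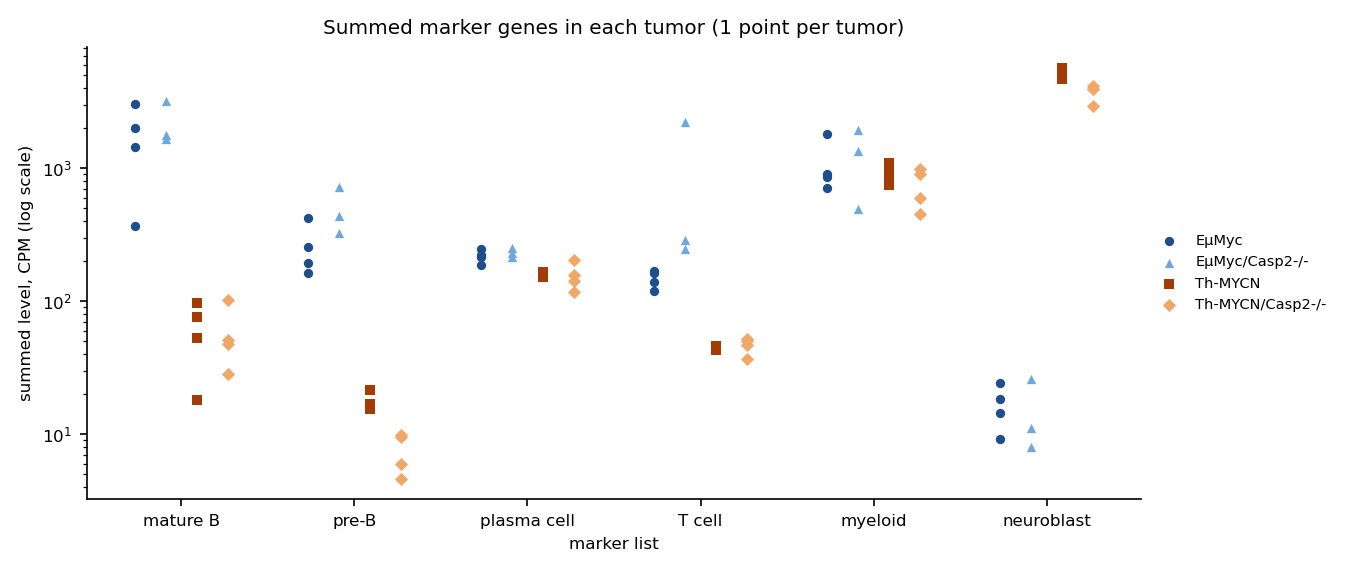
Summed level (CPM, log scale) of the marker genes of 6 cell types in each of 15 tumors, 1 point per tumor, shape and color by group. EuMycC2ko215 stands apart in T cell markers (2209 CPM, other lymphomas 118 to 290), EuMyc743b in mature B markers (366 CPM, other lymphomas 1431 to 3176), and myeloid markers overlap between lymphomas and neuroblastomas.

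The B cell genes were higher in lymphomas than in neuroblastomas. Between EμMyc and Th-MYCN tumors 36 of 38 were higher (likelihood ratio test, FDR below 0.05, log2 fold change beyond 1 in size), against 18.9% of all genes tested, and 0 were lower, against 28.5%. Among the Casp2-/- tumors 35 were higher, against 20.5%, and 0 were lower, against 27.6%. The median log2 fold change of the 38 genes was 3.91 and 5.15, with -0.04 and -0.05 over all genes. The stricter quasi-likelihood test gave the same numbers, and DESeq2 gave 35 and 35. In 35 of 38 genes every EμMyc tumor was above every Th-MYCN tumor, which 26.4% of all genes showed, and in 34 every EμMyc/Casp2-/- tumor was above every Th-MYCN/Casp2-/- tumor, which 23.6% of all genes showed. The contrast compares tumors of 2 tissues, and its median differences were larger for genes of the B lineage than for genes of wider use. The median log2 fold change was 8.83 for the 14 genes of mostly B lineage, all of them higher, 3.52 for the 19 shared with myeloid or T cells, 18 of them higher, and 1.50 for the 5 broad genes, 4 of them higher. Among the Casp2-/- tumors these medians were 8.77, 4.48 and 1.37, with 14, 18 and 3 genes higher. With Ebf1 counted among the broad genes, a choice made after seeing the data, the medians were 8.90 and 8.81 for the remaining 13 genes of mostly B lineage and 1.93 and 1.68 for 6 broad genes. This grouping was made from background knowledge with earlier results known, and the medians are a description.

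**Figure D2:**
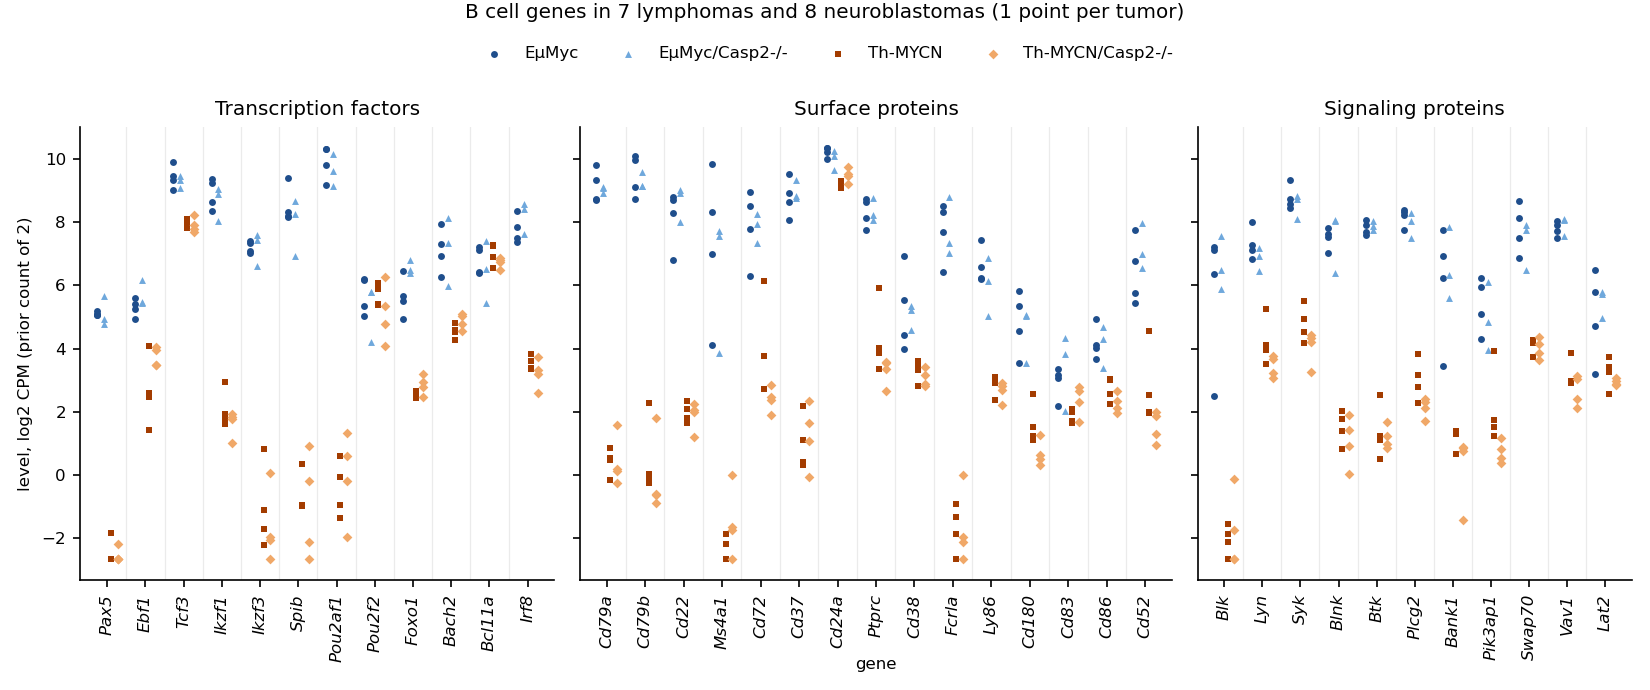
Level of each of the 38 genes (log2 CPM, prior count of 2) in each of 7 lymphomas and 8 neuroblastomas, 1 point per tumor, in panels for transcription factors, surface proteins and signaling proteins. Points at the lower edge are tumors with 0 reads. Lymphomas lie above all neuroblastomas for 33 genes, and the tumor types overlap for Pou2f2, Bcl11a, Cd24a, Cd83 and Lat2. The share of all genes with all 7 lymphomas above all 8 neuroblastomas was not counted.

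Among the transcription factors 10 of 12 were higher in lymphomas, with a median log2 fold change of 3.75 in EμMyc against Th-MYCN tumors and of 4.37 among the Casp2-/- tumors. The shares of all genes tested that were higher in these contrasts were 18.9% and 20.5%. Pax5 (chr4:44524757-44710487, minus strand), which commits cells to the B lineage, was at 36.1, 34.0, 33.2 and 33.3 CPM in the EμMyc tumors EuMyc614, EuMyc743b, EuMyc829 and EuMyc835, and at 27.2, 50.3 and 30.5 CPM in EuMycC2ko215, EuMycC2ko239 and EuMycC2ko245. In the neuroblastomas it had 2 reads in MYCN391, 1 read in MYCNC2ko144 and 0 in the other 6 tumors. All lymphomas thus lay within a narrow band and all neuroblastomas were at or under the detection limit. The ratio of CPM between the tumor types was 1088 (95% counting interval 301 to 8990) for EμMyc against Th-MYCN tumors and 2015 (361 to 79673) among the Casp2-/- tumors (fitted log2 fold changes 9.69, SE 1.07, FDR 6.41e-60, and 10.28, SE 1.49, FDR 5.19e-57).

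Pou2af1, the coactivator that octamer factors use in B cells, was the transcription factor gene with the largest fitted difference between EμMyc and Th-MYCN tumors. It was at 892, 581, 1282 and 1286 CPM in EuMyc614, EuMyc743b, EuMyc829 and EuMyc835 and at 571, 790 and 1152 CPM in EuMycC2ko215, EuMycC2ko239 and EuMycC2ko245. In the neuroblastomas it reached 0.367, 0.799, 0.231 and 1.36 CPM in MYCN175, MYCN235, MYCN332 and MYCN391 and 0.720, 2.38, 0.0964 and 1.38 CPM in MYCNC2ko118, MYCNC2ko144, MYCNC2ko176 and MYCNC2ko180. The tumor types were far apart without overlap (log2 fold changes 10.51, SE 0.55, FDR 8.42e-41, and 9.48, SE 0.58, FDR 2.2e-35). Spib, an Ets factor of B cells and plasmacytoid dendritic cells, was at 284, 291, 317 and 678 CPM in the EμMyc tumors and at 122, 308 and 407 CPM in the EμMyc/Casp2-/- tumors. Its highest neuroblastoma values were 1.11 CPM in MYCN391 and 1.73 CPM in MYCNC2ko144, with 0 to 0.731 CPM in the other 6. Spib was therefore also separated by tumor type (9.46, SE 0.68, FDR 3.14e-23, and 8.72, SE 0.73, FDR 1.82e-20). Ikzf3, or Aiolos, an Ikaros factor of lymphocytes, was at 130 to 169 CPM in EμMyc, 98.3 to 192 in EμMyc/Casp2-/-, 0.0577 to 1.61 in Th-MYCN and 0 to 0.900 in Th-MYCN/Casp2-/- tumors (8.11, SE 0.75, FDR 7.17e-16, and 9.05, SE 0.85, FDR 2.15e-17).

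Not all factors of the early B program were near absent from the neuroblastomas. Ebf1, which acts with Pax5 in B cells and is also used in neurons and stromal cells, was at 30.2 to 72.7 CPM in lymphomas and at 2.54 to 17.0 CPM in neuroblastomas. It was above the detection limit in all 8 neuroblastomas, where Pax5 was not, and its log2 fold changes were 2.36 (SE 0.43, FDR 7.35e-07) and 1.99 (SE 0.47, FDR 6.4e-05). Tcf3, a widely expressed E protein, was at 524 to 961 CPM in lymphomas and at 207 to 303 CPM in neuroblastomas (1.50, SE 0.20, FDR 3.35e-12, and 1.37, SE 0.22, FDR 1.91e-09). Bach2, a repressor that holds back plasma cell fate, ranged from 63.1 to 282 CPM in lymphomas and from 19.3 to 34.2 CPM in neuroblastomas. Foxo1, which switches on recombination genes in B cell precursors and acts in many tissues, ranged from 30.6 to 110 CPM and from 5.30 to 8.97 CPM. Ikzf1, the Ikaros gene itself, spanned 265 to 659 CPM in lymphomas and 1.87 to 7.60 CPM in neuroblastomas, and Irf8, a factor of B and myeloid cells, spanned 166 to 381 CPM and 5.91 to 14.1 CPM. The last 4 genes were higher in lymphomas with no overlap between tumor types, by 2.53 to 7.11 on the log2 scale in the 2 contrasts.

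Pou2f2 and Bcl11a were the 2 transcription factor genes that did not pass the test. Pou2f2, or Oct-2, the octamer factor that recruits Pou2af1, was at 72.9, 32.6, 41.0 and 72.6 CPM in EuMyc614, EuMyc743b, EuMyc829 and EuMyc835 and at 18.6, 55.4 and 55.0 CPM in EuMycC2ko215, EuMycC2ko239 and EuMycC2ko245. Its neuroblastoma values were 59.5, 67.3, 42.0 and 42.7 CPM in MYCN175, MYCN235, MYCN332 and MYCN391 and 27.5, 40.7, 16.9 and 77.3 CPM in MYCNC2ko118, MYCNC2ko144, MYCNC2ko176 and MYCNC2ko180. The ranges covered each other (log2 fold changes 0.05, SE 0.44, FDR 0.929, and 0.09, SE 0.48, FDR 0.891). The genes of the octamer pair thus had unlike patterns: Pou2af1 separated the tumor types and Pou2f2 did not. Bcl11a, a zinc finger factor needed for B cells and active in neurons, was at 83.6 to 149 CPM in EμMyc, 43.0 to 170 in EμMyc/Casp2-/-, 94.3 to 156 in Th-MYCN and 89.0 to 118 in Th-MYCN/Casp2-/- tumors (-0.18, SE 0.33, FDR 0.648, and -0.06, SE 0.36, FDR 0.892).

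**Figure D3:**
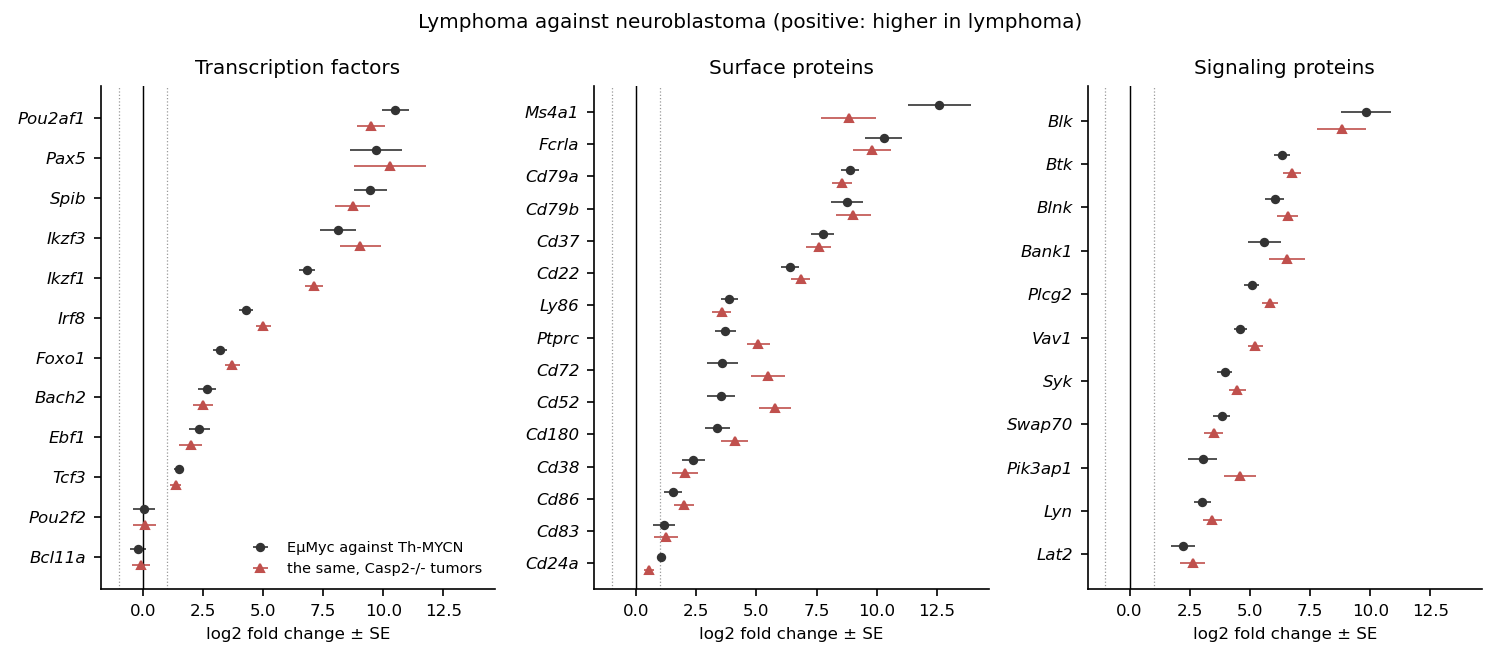
Log2 fold change ± SE of each of the 38 genes between lymphomas and neuroblastomas, for tumors wild type for Casp2 (circles) and Casp2-/- tumors (triangles), ordered within each role by the former. Dotted lines mark a log2 fold change of 1 in either direction. Ms4a1, Pou2af1 and Fcrla lie farthest right for EμMyc against Th-MYCN tumors (12.60, 10.51 and 10.30), and Pou2f2 and Bcl11a lie nearest to 0.

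All 15 genes of surface proteins were higher in EμMyc than in Th-MYCN tumors (median log2 fold change 3.71), and 14 of 15 were higher among the Casp2-/- tumors (5.50), the exception being Cd24a. Of all genes tested 18.9% and 20.5% were higher in these contrasts. Cd79a (chr7:24897381-24902197, plus strand) and Cd79b (chr11:106311341-106314762, minus strand) encode the signaling partners of the receptor. Cd79a was at 639, 413, 429 and 896 CPM in EuMyc614, EuMyc743b, EuMyc829 and EuMyc835 and at 543, 488 and 550 CPM in EuMycC2ko215, EuMycC2ko239 and EuMycC2ko245. Neuroblastomas held 0.733, 1.24, 1.67 and 1.30 CPM in MYCN175, MYCN235, MYCN332 and MYCN391 and 0.936, 2.83, 0.675 and 0.975 CPM in MYCNC2ko118, MYCNC2ko144, MYCNC2ko176 and MYCNC2ko180. Every neuroblastoma held Cd79a reads above its detection limit, at a level far below that of the lymphomas (log2 fold changes 8.90, SE 0.37, FDR 1.66e-73, and 8.56, SE 0.40, FDR 7.09e-68). Cd79b was at 430 to 1091 CPM in EμMyc and 561 to 763 CPM in EμMyc/Casp2-/- tumors, with 4.69 CPM in MYCN391, 3.34 CPM in MYCNC2ko144 and 0.386 to 0.872 CPM in the other 6 neuroblastomas (8.77, SE 0.66, FDR 4.38e-21, and 9.03, SE 0.72, FDR 3.29e-21).

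Ms4a1 (chr19:11249675-11266241, minus strand) encodes Cd20, a membrane protein of maturing B cells. It was at 318, 17.1, 129 and 921 CPM in EuMyc614, EuMyc743b, EuMyc829 and EuMyc835 and at 14.5, 188 and 212 CPM in EuMycC2ko215, EuMycC2ko239 and EuMycC2ko245. Neuroblastomas gave 0, 0, 0.115 and 0.0618 CPM in MYCN175, MYCN235, MYCN332 and MYCN391 and 0.144, 0.835, 0 and 0.162 CPM in MYCNC2ko118, MYCNC2ko144, MYCNC2ko176 and MYCNC2ko180. The lymphomas were all higher, though 2 of them, EuMyc743b and EuMycC2ko215, held far less Ms4a1 than the other 5. The 4 Th-MYCN tumors held 3 reads together, which gave a ratio of 6634 (95% counting interval 2269 to 32170) and a fitted log2 fold change of 12.60 (SE 1.30, FDR 9e-14), and the Casp2-/- tumors gave 8.83 (SE 1.13, FDR 3e-09). Fcrla, an Fc receptor-like protein found inside B cells, was at 208, 86.3, 323 and 365 CPM in the EμMyc tumors and at 130, 161 and 446 CPM in the EμMyc/Casp2-/- tumors. It reached 0.835 CPM in MYCNC2ko144 and 0 to 0.371 CPM in the other 7 neuroblastomas (10.30, SE 0.77, FDR 2.8e-24, and 9.80, SE 0.80, FDR 1.84e-22).

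The other surface genes differed by tumor type over a wide span. Cd22, an inhibitory lectin of the BCR, was at 113 to 521 CPM in lymphomas and 2.16 to 4.89 CPM in neuroblastomas. Cd37, a tetraspanin of mature B cells, was at 271 to 738 CPM and 0.792 to 4.88 CPM. Both showed a log2 fold change over 6 in each contrast (6.39 and 6.84 for Cd22, 7.76 and 7.58 for Cd37). Ptprc, the phosphatase Cd45 of all white blood cells, was at 215 to 437 CPM in lymphomas, at 60.0 CPM in MYCN391 and at 6.19 to 16.3 CPM in the other neuroblastomas. Cd52, a small glycoprotein of lymphocytes and myeloid cells, was at 43.7 to 250 CPM in lymphomas, at 23.4 CPM in MYCN391 and at 1.80 to 5.66 CPM in the others. Each of these genes separated the tumor types. Ly86, the partner of the Toll-like receptor relative Cd180, was at 32.6 to 172 CPM in lymphomas and at 4.54 to 8.43 CPM in neuroblastomas. Cd180 itself was at 11.5 to 56.3 CPM and at 1.08 to 5.74 CPM, so that the pair also stood higher in lymphomas (3.88 and 3.55 for Ly86, 3.38 and 4.09 for Cd180).

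The smallest differences among the surface genes were those of Cd38, Cd86, Cd83 and Cd24a. Cd38, an ectoenzyme of many blood cells, was at 15.7 to 122 CPM in lymphomas and 6.84 to 12.0 CPM in neuroblastomas (2.38, SE 0.49, and 2.02, SE 0.54). Cd86, a costimulatory ligand of antigen presenting cells, was at 10.4 to 30.4 CPM and 3.75 to 8.03 CPM (1.53, SE 0.38, and 1.98, SE 0.41). Both passed in each contrast with no overlap. Cd83, an activation marker of dendritic and B cells, was at 3.94 to 19.9 CPM in lymphomas and 2.98 to 6.82 CPM in neuroblastomas. Over all tumors the ranges overlapped, and its difference passed narrowly (1.17, SE 0.47, FDR 0.0227, and 1.26, SE 0.50, FDR 0.0213). In EμMyc against Th-MYCN tumors it no longer passed without EuMyc743b, MYCN175 or MYCN235, nor with reads of either strand (1.03, FDR 0.0577), and among the Casp2-/- tumors it no longer passed without EuMycC2ko215, MYCNC2ko118 or MYCNC2ko176. Cd24a, the heat stable antigen of B cell precursors and of developing neurons, was at 1193, 1017, 1290 and 1303 CPM in the EμMyc tumors and at 630, 540, 570 and 599 CPM in the Th-MYCN tumors, without overlap (1.04, SE 0.18, FDR 4.81e-08). It no longer passed the fold limit without EuMyc835. Among the Casp2-/- tumors it was at 806, 1104 and 1220 CPM in lymphomas and at 850, 700, 734 and 590 CPM in neuroblastomas, which overlapped (0.54, SE 0.19, FDR 0.0105, under the fold limit).

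All 11 genes of signaling proteins were higher in lymphomas in each contrast, against 18.9% and 20.5% of all genes tested. Their median log2 fold changes were 4.59 and 5.23. Blk, a Src family kinase of the B lineage, was at 82.1, 5.47, 148 and 139 CPM in EuMyc614, EuMyc743b, EuMyc829 and EuMyc835 and at 88.7, 59.4 and 190 CPM in EuMycC2ko215, EuMycC2ko239 and EuMycC2ko245. It reached 0.771 CPM in MYCNC2ko144 and 0 to 0.185 CPM in the other 7 neuroblastomas. EuMyc743b held the least Blk of the lymphomas and still lay above all neuroblastomas (9.82, SE 1.04, FDR 1.14e-13, and 8.81, SE 1.01, FDR 5.59e-12). Btk, the kinase mutated in X-linked agammaglobulinemia, was at 241, 194, 270 and 204 CPM in the EμMyc tumors and at 234, 261 and 215 CPM in the EμMyc/Casp2-/- tumors. In the neuroblastomas it was at 1.28, 2.18, 2.02 and 5.68 CPM in MYCN175, MYCN235, MYCN332 and MYCN391 and at 1.66, 3.02, 1.83 and 2.19 CPM in the Th-MYCN/Casp2-/- tumors. Btk was the most even of the 38 genes among the lymphomas and separated the tumor types (6.34, SE 0.34, FDR 8.71e-53, and 6.75, SE 0.37, FDR 6.37e-55). Blnk, the adaptor that brings Btk to Plcg2, was at 186, 196, 131 and 227 CPM in the EμMyc tumors, 269, 263 and 84.8 CPM in the EμMyc/Casp2-/- tumors and 0.864 to 3.95 CPM in the neuroblastomas (6.03, SE 0.41, FDR 3.45e-33, and 6.57, SE 0.44, FDR 9.84e-36).

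The remaining signaling genes are also used by other white blood cells, apart from Bank1. Lyn, the main Src family kinase of the BCR, was at 87.1 to 255 CPM in lymphomas and 8.28 to 37.7 CPM in neuroblastomas. Syk, the kinase that docks on Cd79a and Cd79b, was at 274 to 642 CPM and 9.51 to 45.8 CPM. For both genes the highest neuroblastoma was MYCN391. Plcg2, the phospholipase of the calcium signal, was at 181 to 332 CPM in lymphomas and 3.10 to 14.1 CPM in neuroblastomas, and Vav1, an exchange factor of blood cells, was at 179 to 277 CPM and 4.18 to 14.4 CPM. Bank1, a scaffold protein of B cells, was at 10.7 to 228 CPM in lymphomas and 0.216 to 2.50 CPM in neuroblastomas. Pik3ap1, the adaptor BCAP that links the BCR to phosphoinositide 3-kinase, was at 15.4 to 75.0 CPM and 1.16 to 15.0 CPM. Swap70, which binds the same lipid product, was at 89.1 to 410 CPM in lymphomas and 12.3 to 20.3 CPM in neuroblastomas. These 7 genes did not overlap between tumor types, and their log2 fold changes ran from 3.02 for Lyn to 6.54 for Bank1. Lat2, an adaptor of B and mast cells, was at 9.07 CPM in EuMyc743b and 26.1 to 90.3 CPM in the other lymphomas, against 5.81 to 13.1 CPM in neuroblastomas, and was the only signaling gene with an overlap of tumor types (2.21, SE 0.49, FDR 4.97e-05, and 2.62, SE 0.54, FDR 5.72e-06).

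The libraries did not keep strand, since the second strand held 48.8 to 49.3% of the reads of both strand columns, so that reads on overlapping genes of opposite strands cannot be told apart. This touched 5 genes, Cd72 (1423 exon bases shared with Tesk1), Lat2 (952 with Rfc2), Cd180 (182 with Mast4), Cd52 (145 with Crybg2) and Cd37 (13 with Tead2), by the GENCODE vM21 annotation. With reads of either strand, where a read on overlapping genes is left uncounted, Cd72 fell from a median of 6.44 to 2.81 CPM in neuroblastomas and from 248 to 195 CPM in lymphomas. Lat2, in contrast, kept 5.49 to 12.6 CPM in neuroblastomas with reads of either strand. Cd72, an inhibitory receptor of B cells, was thus at 78.5 to 491 CPM in lymphomas, at 70.0 CPM in MYCN391 and at 3.60 to 13.6 CPM in the other neuroblastomas, where a share of the reads may belong to Tesk1. Its difference passed in each contrast with either way of counting (3.58 and 5.50 with the second strand, 3.71 and 6.49 with either strand).

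On a scale per length (RPKM, that is CPM divided by the exon length of the gene in kilobases), the genes could be ranked against each other. In lymphomas the highest medians were those of Cd24a (462 RPKM), Cd79b (398), Cd79a (373) and Pou2af1 (350), and Pax5 stood at rank 37 of 38 (3.77 RPKM). Cd24a and Tcf3 ranked highest in neuroblastomas too (238 and 59.0 RPKM). Bcl11a and Pou2f2 followed there, with medians of 8.71 and 5.14 RPKM, against 7.01 and 6.67 RPKM in lymphomas. The receptor partners, in contrast, had medians of 0.498 (Cd79b) and 0.758 RPKM (Cd79a) in neuroblastomas. The order of Cd24a, Cd79b, Cd79a and Pou2af1 in lymphomas is within their spread, since their ranges over the 7 tumors overlapped (312 to 505, 301 to 762, 284 to 615 and 224 to 505 RPKM).

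A further 30 genes of the BCR pathway were followed beside the 38. Of these, 17 were higher and 1 lower in EμMyc than in Th-MYCN tumors (median log2 fold change 1.74), against 18.9% and 28.5% of all genes tested. Among the Casp2-/- tumors 20 were higher and 2 lower (2.06), against 20.5% and 27.6%. Siglecg, an inhibitory lectin of B cells, was among those with the largest differences (9.87, SE 0.59, FDR 4.37e-40, and 9.47, SE 0.65, FDR 1.62e-36). The lowest values were those of Pik3r1, the regulatory subunit of phosphoinositide 3-kinase, which is widely expressed and was lower in lymphomas (80.7 ± 16.9 CPM in EμMyc and 944 ± 331 CPM in Th-MYCN tumors, SD, n = 4 each, -3.55, SE 0.28, FDR 9.37e-30, and -3.89, SE 0.30, FDR 4.74e-27). Vav3, a relative of Vav1, had -1.09 (FDR 0.0726) in the first contrast and -0.65 (FDR 0.356) in the second. Sh3bp2, an adaptor of Syk and Plcg2, had -0.94 (FDR 0.000335, under the fold limit) in the first, and Sos1, a Ras exchange factor, was lower in the second (-1.19, FDR 4.35e-05). The shared downstream parts Grb2, Bcl10, Cblb and Cd81 were not called in either contrast, with log2 fold changes between -0.29 and 0.28.

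The lymphomas differed among themselves in many of these genes. The ratio of the highest to the lowest CPM over the 7 lymphomas had a median of 3.39 for the 38 genes, against 2.10 for the 9212 genes with a mean level in lymphomas at or above that of the lowest of the 38. The widest ratios were 63.7 for Ms4a1 (14.5 CPM in EuMycC2ko215, 921 in EuMyc835), 34.8 for Blk (5.47 in EuMyc743b, 190 in EuMycC2ko245) and 21.3 for Bank1 (10.7 in EuMyc743b, 228 in EuMycC2ko239). Without EuMyc743b the ratios of Blk and Bank1 were 3.20 and 4.67, and without EuMyc835 that of Ms4a1 was 22.0. At the other end Btk (1.39), Vav1 (1.54) and Cd24a (1.62) were the most even. Kinases of the same pathway thus differed in how much they varied, with Blk wide and Btk narrow. Among transcription factors Pax5 (1.85), Tcf3 (1.84) and Ikzf3 (1.96) varied little, and Spib (5.57) and Bach2 (4.46) more.

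The lowest values fell mostly in 2 tumors of different genotype. EuMycC2ko215 was the lowest lymphoma for 17 of the 38 genes, Ms4a1, Spib, Pou2f2, Bcl11a and Bach2 among them, and EuMyc743b for 14, among them Blk, Bank1, Lat2, Cd22 and Cd79b. EuMyc835 was the highest for 15. How often these tumors were the lowest or highest over all genes was not counted, so these numbers have no background to stand against. Beside these values, EuMycC2ko215 had the highest sums of T cell markers (2209 CPM), myeloid markers (1927 CPM) and the 6 pre-B markers tested (716 CPM, of which Rag1 gave 358 and Cd93 234 CPM), and the fewest reads. Dntt, which did not pass the filter and is not in that sum, was at 299 CPM there. Whether the reads of these genes came from pre-B cells or from the cells with T cell markers was not tested. The surrogate light chain genes Vpreb1 and Igll1 were low in EuMycC2ko215 (4.30 and 1.56 CPM). Both were highest in EuMyc743b (60.1 and 95.1 CPM, at most 4.30 and 5.35 CPM in the other lymphomas). EuMyc743b had the second highest sum of myeloid markers (1797 CPM) and the lowest of mature B markers (366 CPM, other lymphomas 1431 to 3176 CPM). The mature B sums consist mostly of MHC class II presentation genes. What part the cells with these markers had in the low values was not tested. Without EuMycC2ko215 the median ratio over the 38 genes was 2.44, and it was 2.44 to 3.39 over all 7 tumors left out in turn. Not every gene followed this pattern: in EuMycC2ko215 Cd52 and Cd83 were the highest of all lymphomas (250 and 19.9 CPM), and Btk and Cd79a lay at 234 and 543 CPM, within the range of the other 6.

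**Figure D4:**
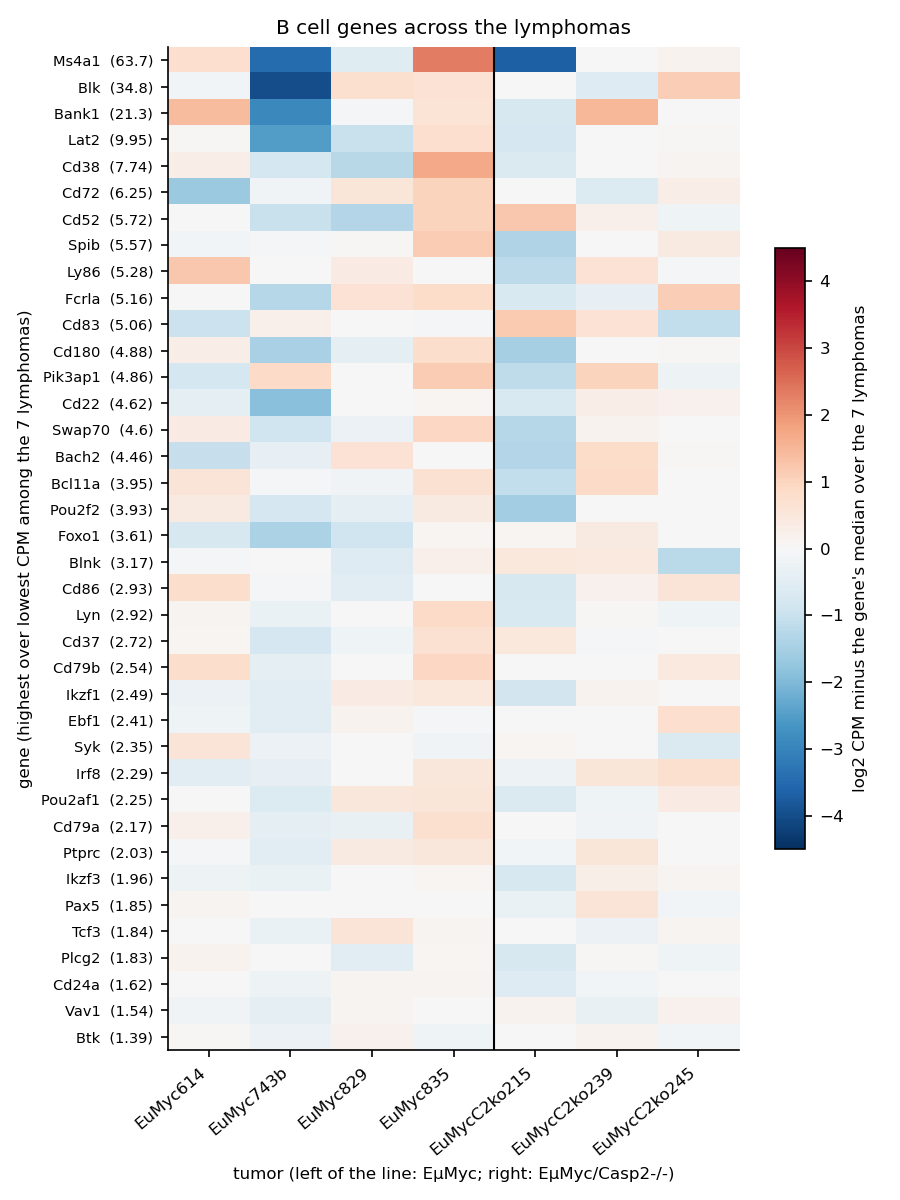
Level of the 38 genes in each of the 7 lymphomas (log2 CPM minus the median of the gene over the lymphomas, red higher, blue lower), with 4 EμMyc tumors left and 3 EμMyc/Casp2-/- tumors right of the line. Genes are ordered by the ratio of highest to lowest CPM, given beside each name, from Ms4a1 (63.7) to Btk (1.39), and the darkest blue lies in EuMyc743b (Ms4a1, Blk, Bank1) and EuMycC2ko215 (Ms4a1).

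The comparison of Casp2 genotypes in lymphomas asked whether loss of Caspase-2 was accompanied by a change of B cell genes. Between EμMyc/Casp2-/- and EμMyc tumors 0 of the 38 genes were higher, against 1.14% of all genes tested, and 0 were lower, against 0.302%. The quasi-likelihood test and DESeq2 also called 0, and 1 gene (2.63%) had an unadjusted p under 0.05 in the likelihood ratio test, against 9.89% of all genes. The groups overlapped for all 38, whereas 1.75% of all genes tested lay wholly higher and 1.96% wholly lower in EμMyc/Casp2-/- tumors. Log2 fold changes ran from -1.32 (Ms4a1, SE 1.07) to 0.82 (Foxo1), with a median of -0.10 (all genes -0.03), 17 positive and 21 negative. The 14 genes of mostly B lineage ran from -1.32 to 0.43 with a median of 0.03, for example 0.08 (SE 0.35) for Pax5, -0.17 (SE 0.36) for Cd79a, -0.49 (SE 0.69) for Spib and 0.43 (SE 0.46) for Ebf1. Errors of this size leave changes in either direction open.

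Foxo1 had the smallest p. It was at 50.9, 30.6, 45.0 and 87.6 CPM in EuMyc614, EuMyc743b, EuMyc829 and EuMyc835 and at 89.5, 110 and 83.3 CPM in EuMycC2ko215, EuMycC2ko239 and EuMycC2ko245. The groups overlapped through EuMyc835 alone (0.82, SE 0.31, FDR 0.202, quasi-likelihood FDR 0.366), and without EuMyc835 the gene passed the likelihood ratio test (1.16, FDR 0.00466). Irf8 was at 166, 181, 232 and 329 CPM in the EμMyc tumors and at 198, 340 and 381 CPM in the EμMyc/Casp2-/- tumors (0.43, SE 0.30, FDR 0.73). Cd83 was at 4.37, 10.2, 8.74 and 8.28 CPM and at 19.9, 13.9 and 3.94 CPM, with the lowest and the highest lymphoma both among the EμMyc/Casp2-/- tumors (0.66, SE 0.50, FDR 0.753). Without EuMycC2ko215, the tumor rich in T cell markers, 0 of 38 genes were called and the median was 0.04. Of the 30 further pathway genes 1 was higher, Cr2, a complement receptor of mature B cells, at 0.0855 to 1.17 CPM in EμMyc and 2.32 to 56.8 CPM in EμMyc/Casp2-/- tumors (4.84, SE 1.19, FDR 0.0198, quasi-likelihood FDR 0.17), and 0 were lower. Among the marker lists 6 of 14 T cell, 1 of 7 mature B (Cr2 again), 0 of 6 pre-B, 0 of 4 plasma cell, 0 of 13 myeloid and 2 of 11 neuroblast genes were higher in EμMyc/Casp2-/- tumors and 0 were lower. Over all genes tested 1.14% were higher and 0.302% lower.

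**Figure D5:**
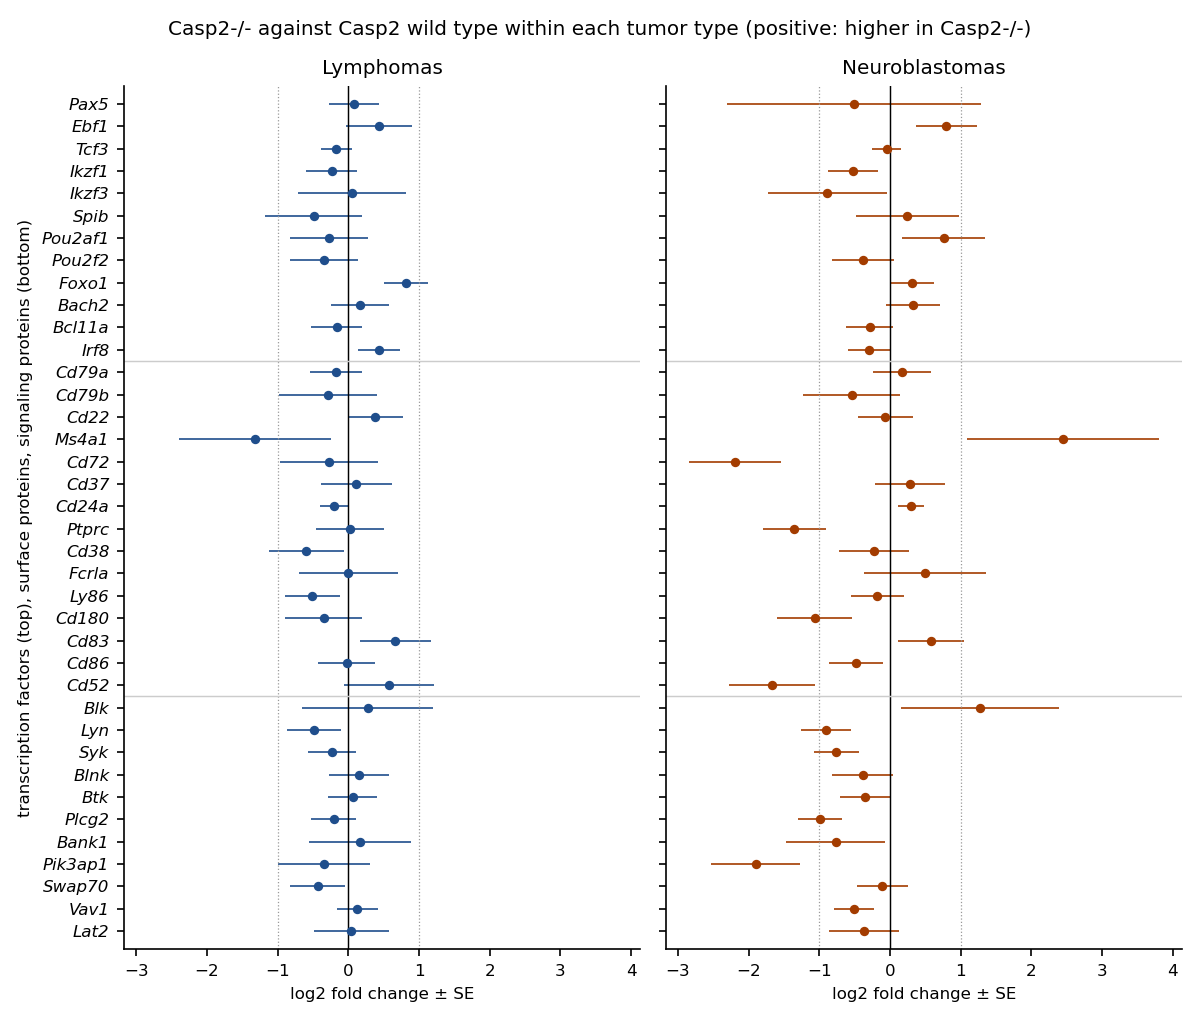
Log2 fold change ± SE of each of the 38 genes between Casp2-/- tumors and tumors wild type for Casp2, in lymphomas (left, 3 against 4) and neuroblastomas (right, 4 against 4), with dotted lines at 1 in either direction. No gene was called in either tumor type, and the values farthest from 0 are those of Ms4a1 (-1.32 in lymphomas, 2.44 in neuroblastomas) and Cd72 (-2.19 in neuroblastomas).

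In the neuroblastomas most of the B cell genes were low in both genotypes. With Th-MYCN tumors as the reference, 0 of the 38 genes were higher in Th-MYCN/Casp2-/- tumors, against 0.188% of all genes tested, and 0 were lower, against 0.625%, and the quasi-likelihood test and DESeq2 called 0 as well. An unadjusted p under 0.05 was found for 9 (23.7%), against 7.78% of all genes. Log2 fold changes were negative for 26 and positive for 12, with a median of -0.32 (all genes 0.00), from -2.19 (Cd72) to 2.44 (Ms4a1, SE 1.35, a gene with at most 0.835 CPM). MYCN391 was the highest neuroblastoma for 17 of the 38 genes, and without it the median was -0.09 and 22 genes were negative. The share of all genes that were highest in MYCN391 was not counted.

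Cd72 had the smallest p. It was at 6.47, 13.6, 6.41 and 70.0 CPM in MYCN175, MYCN235, MYCN332 and MYCN391 and at 3.60, 7.13, 5.01 and 5.36 CPM in MYCNC2ko118, MYCNC2ko144, MYCNC2ko176 and MYCNC2ko180. The groups overlapped and 1 tumor lay far above the rest (-2.19, SE 0.65, FDR 0.0959, quasi-likelihood FDR 0.434). Without MYCN391 the log2 fold change was -0.74. With reads of either strand, which leave out reads shared with Tesk1, Cd72 was at 59.7 CPM in MYCN391, at 2.96 to 10.4 CPM in the other Th-MYCN tumors and at 1.46 to 2.65 CPM in the Th-MYCN/Casp2-/- tumors. The groups then no longer overlapped and Cd72 passed as lower (-3.22, FDR 0.017), and so it did with the second strand without MYCN175 or MYCN332. Plcg2 was at 6.78, 8.86, 4.73 and 14.1 CPM in the Th-MYCN tumors and at 3.10, 5.20, 4.24 and 4.79 CPM in the Th-MYCN/Casp2-/- tumors, which overlapped slightly (-0.99, SE 0.31, FDR 0.109). Pik3ap1 was at 2.75, 3.20, 2.19 and 15.0 CPM and at 1.30, 1.61, 1.16 and 2.11 CPM, and was the only gene of the 38 whose groups did not overlap (-1.90, SE 0.63, FDR 0.165), which 3.68% of all genes showed in this direction. Without MYCN391 Plcg2 had -0.64 and Pik3ap1 -0.81. Plcg2 and Ptprc were also called lower without MYCN332 (-1.19, FDR 0.0173, and -1.62, FDR 0.0348), and Ebf1 was called higher without MYCN175 (1.55, FDR 0.00286).

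MYCN391 and MYCNC2ko144 stood out in different genes. MYCN391 was the highest neuroblastoma for 11 of the 19 genes shared with myeloid or T cells, such as Ptprc, Cd52, Syk, Lyn, Btk and Vav1, and for 5 of the 14 mostly B lineage genes. MYCNC2ko144 was the highest for 6 of the 14, namely Spib, Pou2af1, Cd79a, Ms4a1, Fcrla and Blk, each at 0.771 to 2.83 CPM, and for 1 of the 19. MYCNC2ko118 was the lowest neuroblastoma for 18 of the 38. Shares over all genes were not counted for these tumors. Beside these values, the myeloid markers summed to 1096 CPM in MYCN391, the highest, and to 450 CPM in MYCNC2ko118, the lowest, with 591 CPM in MYCNC2ko144. The T cell markers summed to 42.6, 46.7 and 49.9 CPM in the same tumors. Their part in the levels was not tested. Of the 30 further pathway genes 0 were higher and 1 was lower in Th-MYCN/Casp2-/- tumors. Of the marker lists 1 of 6 pre-B genes, Cd93, was lower (-1.13, FDR 0.0189, quasi-likelihood FDR 0.22), a gene that endothelial and myeloid cells also express, and 0 genes of the other 5 lists were called. Over all genes tested 0.188% were higher and 0.625% lower.

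The difference between the genotype effects of the 2 tumor types was tested as an interaction. Of the 38 genes 0 had a higher effect in lymphomas, against 0.726% of all genes tested, and 0 a lower one, against 0.188%, and the quasi-likelihood test and DESeq2 called 0 too. An unadjusted p under 0.05 was found for 4 (10.5%), against 8.96% of all genes. The smallest p belonged to Cd52 (2.25, SE 0.88, FDR 0.294), Ms4a1 (-3.77, SE 1.73, FDR 0.403) and Ptprc (1.37, SE 0.66, FDR 0.5). Cd52 was at 108, 53.9, 43.7 and 216 CPM in EμMyc and at 250, 128 and 93.6 CPM in EμMyc/Casp2-/- tumors, against 3.73, 5.66, 3.87 and 23.4 CPM in the Th-MYCN group and 1.80, 3.53, 2.31 and 3.82 CPM in the Th-MYCN/Casp2-/- group. Without MYCN391 the interaction was 1.19 for Cd52 and 0.49 for Ptprc, and without MYCNC2ko144 it was -2.38 for Ms4a1.

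Between the tumor types most B and T cell markers were higher in lymphomas and all neuroblast markers were lower. In EμMyc against Th-MYCN tumors 11 of 14 T cell, 3 of 13 myeloid, 5 of 6 pre-B, 6 of 7 mature B and 1 of 4 plasma cell markers were higher. In the same contrast 1 plasma cell marker and all 11 neuroblast markers were lower. Over all genes tested 18.9% were higher and 28.5% lower. Among the Casp2-/- tumors the numbers were 13, 4, 6, 7 and 2 higher, with 1 plasma cell and all 11 neuroblast markers lower. The shares of all genes there were 20.5% higher and 27.6% lower. The medians of the myeloid markers were 0.12 and 0.65 on the log2 scale, and those of the T cell markers were 3.35 and 6.58. The 19 genes shared with myeloid or T cells had medians of 3.52 and 4.48. The part of myeloid and T cells in these 19 genes was not tested.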

How the data were processed

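Poly(A) RNA of 15 tumors was sequenced by the authors as single-end reads of 50 bases, checked with FastQC, aligned with STAR to mm10/GRCm38 and counted per gene by STAR. Versions and annotation release are not given in the sources used here. The deposited values are raw counts of reads on each gene, given once for both strands together and once for each of them. The second strand was used, as the methods of the study state. Rows for unmapped, multimapped, ambiguous and unassigned reads were left out of library sizes. Reads assigned to no gene on that strand came to 37.4 to 49.2% of its reads, and with either strand to 8.57 to 15.6%.

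Genes over 1 CPM in at least 3 tumors were fitted in edgeR 4.0.16 (R 4.3.3) with TMM scaling and 4 group means over all tumors. The main test was the likelihood ratio test, and called genes had a Benjamini-Hochberg FDR under 0.05 over all 14880 genes and an absolute log2 fold change over 1. Adjusted p-values printed with no other name are of this test. The edgeR quasi-likelihood test, DESeq2 1.42.0, RLE scaling, no filter, either strand, no fold limit, a fit to the compared groups only and leaving out each tumor were the alternatives. The fits were tested on simulated data. Pairs of tumors of a group differed by 16.2 to 76.0 chi-square per degree of freedom over 21 pairs, so that none was a copy. The tumors are of separate mice.

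The 38 genes and the other gene lists were chosen with earlier results of these data known. Named with full values were the 3 genes of each role with the largest log2 fold change between tumor types and any not called, the 3 with the smallest p between genotypes and in the interaction, the 3 widest and 3 narrowest among lymphomas, and the 3 highest and 3 lowest further pathway genes. Further names, Ebf1, Tcf3, Cd83 and Cr2 among them, were chosen after their values were seen. Some genes that these rules name are not reported here. A further EμMyc/Casp2-/- tumor that the study set aside is not analysed here.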

Additional observations from a re-analysis of the deposited data

Results flagged for a closer look

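Within groups of 4 tumors, 114 sets of values (38 genes in 3 groups) were checked for a single tumor whose gap to its nearest neighbour took up more of the range than Dixon's limit for 4 values, and 10 passed (8.77%). Chance flags about 1 in 20 such sets, and the genes are not independent.

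MYCN391 was the high tumor of the Th-MYCN group for Pax5 (gap over range 1, 0.124 CPM against 0 in the others, 2 reads), Spib (0.958, 1.11 CPM, next 0.366), Cd79b (0.890, 4.69 CPM, next 0.872) and Vav1 (0.921, 14.4 CPM, next 7.73). MYCNC2ko144 was the high tumor of the Th-MYCN/Casp2-/- group for Pax5 (1, 0.0643 CPM against 0, 1 read) and Cd79b (0.894, 3.34 CPM, next 0.504). MYCNC2ko118 was the low tumor of that group for Ikzf1 (0.835, 1.87 CPM, next 3.28) and Bank1 (0.943, 0.216 CPM, next 1.54). MYCN332 was the low tumor of the Th-MYCN group for Bank1 (0.831, 1.44 CPM, next 2.29). In the EμMyc group EuMyc835 was the high tumor for Spib (0.874, 678 CPM, next 317). The flags of Pax5 rest on 1 or 2 reads, which lie under the detection limit of 3 reads.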

How the results depend on the processing

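The numbers of genes called between tumor types changed little, with 35 to 36 of 38 higher in EμMyc against Th-MYCN and 34 to 35 among the Casp2-/- tumors when each tumor was left out. Between genotypes, leaving out each tumor gave 0 to 1 genes higher in lymphomas (Foxo1, without EuMyc835), and 0 to 1 higher (Ebf1, without MYCN175) and 0 to 3 lower (Cd72, Ptprc and Plcg2, without MYCN332) in neuroblastomas. With reads of either strand 1 gene was lower in Th-MYCN/Casp2-/- tumors, Cd72. Casp2 in lymphomas was no longer past the threshold by the quasi-likelihood test (-1.35, FDR 0.0536). The spread of Blk was 3.20 to 34.8, of Bank1 4.67 to 21.3 and of Cd24a 1.28 to 1.62 with each tumor left out.

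Direction was unstable for 2 uncalled genes. Pou2f2 ran from -0.11 to 0.24 in EμMyc against Th-MYCN tumors (-0.08 without EuMyc614, -0.11 without EuMyc835, -0.05 without MYCN332, -0.04 without MYCN391) and from -0.17 to 0.66 among the Casp2-/- tumors (-0.06 without EuMycC2ko239, -0.14 without EuMycC2ko245, -0.06 without MYCNC2ko118, -0.17 without MYCNC2ko176). Bcl11a ran from -0.59 to 0.36 among the Casp2-/- tumors (0.36 without EuMycC2ko215). The cause of these changes was not tested.

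No paired analysis was possible because each tumor came from another mouse and no tumor number occurs in more than 1 group. Genotype comparisons held 3 or 4 tumors per group, and in neuroblastomas many of the genes lay near the detection limit, so changes there were often not detectable at this depth.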
